A study of Drosophila melanogaster with 9 samples.

Results

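Pulldown with control IgG was set against total ovary lysate, to describe which classes of ovary mRNA were over- or under-represented in an immunoprecipitation with an antibody that has no intended target. The comparison used 6 of the 9 libraries of the series, chosen by the antibody named in their labels: 3 IgG libraries, made with control mouse IgG, and 3 Input libraries, for which 10% of the total lysate was set aside. The 3 IP libraries, pulled down with anti-FLAG, are given beside them for orientation. All 9 came from ovaries of Drosophila melanogaster carrying aramis::GFP::FLAG, dissected 1 to 3 days after eclosion, so IgG and Input carry the tagged helicase Aramis too (the design text of the series names the tagged protein as Larp). RNA was purified with Trizol, treated with DNase and selected for poly(A) before directional libraries were made. The labels number replicates 1 to 3 in each group but do not say whether they are separate dissections, so the p-values below measure only the spread between these samples.

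In an RNA immunoprecipitation, an antibody on beads retains a protein together with the RNA bound to it. A control IgG measures the RNA that comes down without that recognition, on the beads, on the antibody or in particles that co-sediment. The fly ovary is a mixture of tissues: a germline of nurse cells and oocytes that is packed with maternal mRNA, follicle cells that secrete yolk proteins and the eggshell, and a contractile sheath of muscle that wraps the ovarioles and is anchored to basement membrane.

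IgG libraries detected fewer features than Input libraries, and the missing ones were mostly those of low abundance in Input. Total counts were 30533376 to 46061760 in IgG, 35191953 to 42062907 in IP and 38995174 to 47080956 in Input. At least 1 read was counted for 7859 ± 63.5 features in IgG, 9815 ± 150.4 in IP and 11092 ± 120.1 in Input (SD, n = 3 each). All 3 IgG libraries lay below all 3 Input libraries (two-sided exact permutation p 0.1, the smallest that 3 against 3 allows), and after thinning each library to the smallest total the means were 7848 and 10815. Few detected features had a low count in IgG: 111, 186 and 138 of them held 1 to 9 reads, which was 1.42%, 2.35% and 1.76% of those detected, against 22.6%, 22% and 22.3% in Input. The 5th percentile of the counts above 0 was 53, 31 and 58 reads in IgG and 1 read in each Input library. A transcript was thus mostly either absent from an IgG library or present with more than a few reads, and which ones were absent differed between libraries. The log2 CPM values (a gene's counts relative to the library total, in counts per 1e6, scaled for composition) of replicate IgG libraries correlated across genes with Pearson's r of 0.875 to 0.883, against 0.991 to 0.993 for Input.

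**Figure D1:**
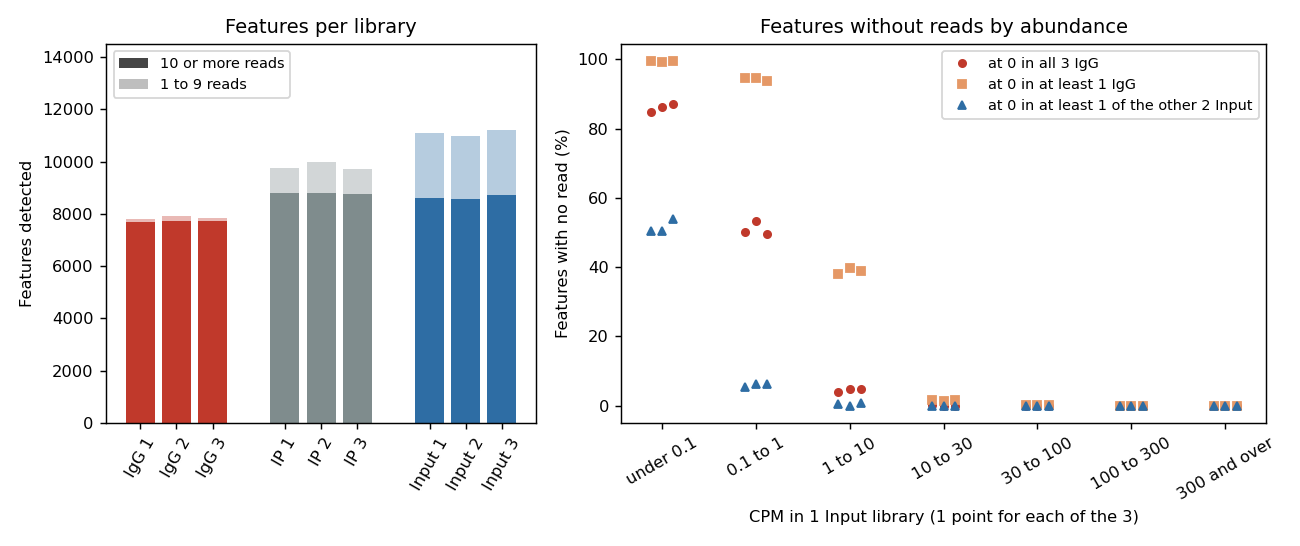
The left panel gives the number of features with at least 10 reads (dark) and with 1 to 9 reads (light) in each IgG, IP and Input library, and the right panel the percentage of features without any read by their CPM in 1 Input library. In the band of 0.1 to 1 CPM, 49.5% to 53.2% of features had no read in any IgG library and 93.7% to 94.6% had none in at least 1, whereas 5.37% to 6.37% had none in at least 1 of the other Input libraries.

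Complete absence from IgG followed abundance in Input. Of features at 0.1 to 1 CPM in an Input library, about the same share was missing from all 3 IgG libraries whichever Input library set the band (50.2%, 53.2% and 49.5%), and at 1 to 10 CPM this was 4.06%, 4.87% and 4.88%. From 30 CPM upward no feature was missing from all IgG libraries. The scaling of CPM places the ratio of most genes near 0, so the medians of the bands only compare bands with each other. They do not measure how much of the lysate's RNA was retained. The median log2 ratio of IgG over the Input libraries that did not set the band was 0.30, 0.29 and 0.32 at 1 to 10 CPM, 0.12, 0.12 and 0.15 at 10 to 30 CPM, and -0.11, -0.10 and -0.10 at 300 CPM and over. Single features differed by more: at 1 to 10 CPM in Input 1, the 10th and 90th percentiles of this ratio were -1.81 and 1.93.

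Of 8789 genes with enough reads to test, 908 were called higher in IgG than in Input (10.3% of those tested) and 1456 lower (16.6%), at an adjusted p under 0.05 in edgeR's quasi-likelihood test with Benjamini-Hochberg adjustment. IgG exceeded Input by 2-fold or more for 286 genes, and lay below it by as much for 752. For 471 of the lower genes no IgG library had a single read, and these were scarce transcripts, with a median of 0.423 CPM in Input. The most abundant was the histone demethylase gene Kdm4B, with 0 reads in each IgG library against 460, 382 and 452 reads in Input libraries 1, 2 and 3, which is at least 345-fold lower against a floor of 3 reads over the IgG group. Features at 0 in every IgG library passed the filter on low counts only through reads in Input or IP. With DESeq2 in place of edgeR, 140 of the 471 were called lower. The other 985 lower genes were measured in IgG. The number of calls depended on the libraries used: with any 1 of the 3 Input libraries left out, 446 to 490 genes were called in all and none of the 471 with 0 reads, and with any 1 IgG library left out 2974 to 3306 were. This fit did not pair libraries by replicate number. With the number as a block 1959 genes were called, 1574 of them among the 2364 called here.

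Among tested genes the share called lower was 34.2% at 0.1 to 1 CPM in Input (423 of 1237 genes, 412 of them at 0 in every IgG library), 5.22% at 1 to 10 CPM and 3.15% at 10 to 30 CPM. It was 11.8% at 30 to 100 CPM, 23.6% at 100 to 300 CPM and 32.0% at 300 CPM and over. The share called higher was 1.78% at 0.1 to 1 CPM and 7.99%, 10.9%, 11%, 13.6% and 19.1% in the 5 bands above it. More abundant mRNAs were therefore called more often in both directions above 10 CPM. The spread between replicates narrowed over the same range: the median SD of log2 CPM over the 3 IgG libraries was 1.41 at 1 to 10 CPM in Input 1, 0.557 at 10 to 30 CPM, 0.332 at 30 to 100 CPM, 0.211 at 100 to 300 CPM and 0.135 above, and its part in the counts of calls was not tested.

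The largest rise was that of an abundant feature with the malformed ID FBgn000003, which was left without a name here. It held 5.89%, 14.6% and 7.89% of all reads in IgG libraries 1, 2 and 3, 1.04%, 0.879% and 0.684% in IP, and 0.0292%, 0.0612% and 0.0113% in Input (log2 fold change IgG over Input 8.28, SE 0.87, adjusted p 0.00288). Its removal before scaling left 2368 genes called.

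Muscle mRNAs rose by more than any other gene list described here, by the median of the list. Of 29 genes in the files for proteins of the sarcomere, the contractile unit of muscle, 24 were tested and 5 had no read in any IgG library. Of the 24 tested, 15 rose in IgG and none fell, with a median log2 fold change of 2.63 over the 24, against -0.01 over all genes tested. Summed over all members in the files, tested or not, as in all sums below, CPM came to 5030.1, 5825 and 1674 in IgG libraries 1, 2 and 3, 2373, 1432 and 1023 in IP and 1251, 1161 and 983 in Input. IgG 3 held the least of the IgG libraries and still exceeded every Input library. In bulk samples such as these, the number of cells of a type and the RNA per cell cannot be told apart in the CPM of a library. The ratio of IgG to Input, which was set aside from the total lysate, was not a measure of either.

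Genes for giant proteins of the sarcomere led the class. Transcripts of bent (bt), a titin-like kinase of the thick filament, stood at 444, 472 and 64.8 CPM in IgG libraries 1, 2 and 3, 142, 68.9 and 23.3 CPM in IP and 16, 9.28 and 4.89 CPM in Input (log2 fold change IgG over Input 5.01, SE 0.88, adjusted p 0.0128). The IgG and Input values did not overlap, and replicate 3 was lowest in each of the 3 groups. The other giants, sallimus (sls, the fly titin) and Obscurin (Obsc, of the M-line), were likewise lowest in replicate 3 of IgG and of Input. For sls, 187, 191 and 36.3 CPM were measured in IgG and 6.72, 4.06 and 2.1 CPM in Input (5.0, SE 0.79, adjusted p 0.00982), and for Obsc, 115, 78 and 12.7 CPM in IgG and 3.47, 1.67 and 0.996 CPM in Input (5.06, SE 0.94, adjusted p 0.0149). Without Input 2 none of these 3 genes was called, and without Input 3 only sls was.

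Motor and thin filament genes followed. Muscle myosin heavy chain (Mhc) stood at 882, 991 and 116 CPM in IgG, 305, 119 and 34.9 CPM in IP and 66.3, 37.8 and 19.7 CPM in Input (4.0, SE 0.88, adjusted p 0.0187). This call was lost without any 1 Input library and with replicate number as a block in the fit (adjusted p 0.0857). The essential myosin light chain Mlc1 (3.29), the thick filament core protein Paramyosin (Prm, 3.13), the muscle actin Act87E (3.31) and the calponin-like Mp20 (3.29) rose by similar amounts, and troponin T (up, 2.47) and tropomyosin 2 (Tm2, 2.26) by less (adjusted p 0.0119, 0.0209, 0.0107, 0.0149, 0.021 and 0.0249). Tropomyosin 1 (Tm1), which also has isoforms in non-muscle cells including the oocyte, stood at 731, 756 and 699.8 CPM in IgG and 604, 624 and 620.0 CPM in Input (0.24, adjusted p 0.0187), a call lost with scaling by library totals, after length correction and without any 1 Input library. Act57B did not pass the test (1.16, adjusted p 0.108), with 418, 517 and 164 CPM in IgG overlapping 206, 177 and 107 CPM in Input. The count for the class depended on single libraries: 13, 11 and 21 members were called without IgG 1, 2 and 3, and 4, 0 and 1 without Input 1, 2 and 3, while the median stayed between 1.95 and 3.03.

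Genes for muscle attachment, calcium handling and energy, many of which serve other cells too, were mixed, with 5 of 16 called higher and 3 lower. The nuclear anchor Msp300 (2.18), the calcium channel subunit Ca-alpha1D (3.95) and the Z-disc proteins Zasp52 (1.32), Lasp (1.1) and alpha-actinin (Actn, 0.54) rose (adjusted p 0.0149, 0.0175, 0.026, 0.0189 and 0.024). The calcium pump SERCA (-0.31), the RNA-binding protein held out wings (how, -0.82) and the formin Fhos (-0.63) fell (adjusted p 0.0232, 0.0305 and 0.0291), and arginine kinase (Argk1) differed by -0.08 (adjusted p 0.499). Without any 1 Input library, no member of this list was called. The call for Msp300 was also lost after correction for exon length, which gave 0.95, and that for Ca-alpha1D with the replicate block.

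Basement membrane components rose too, by less. Of 12 tested, 7 rose and none fell, with a median of 0.95 and CPM sums of 2095, 2291 and 1437 in IgG, 2857, 3063 and 2563 in IP and 959, 1014 and 763 in Input. The 3 chains of the laminin trimer rose together: LanA stood at 298, 349 and 267 CPM in IgG, 522, 530.1 and 431 CPM in IP and 134, 131 and 96.6 CPM in Input (1.34, SE 0.16, adjusted p 0.0044), and LanB2 and LanB1 rose by 1.07 and 0.93 (adjusted p 0.0101 and 0.018). Both collagen IV chains rose, Col4a1 by 0.82 and viking (vkg) by 1.03 (adjusted p 0.0136 and 0.0169), as did the collagen chaperone SPARC (0.96, adjusted p 0.0202). Papilin (Ppn) had the largest rise (4.21, SE 1.08, adjusted p 0.0313) on 361, 352 and 26.2 CPM in IgG and 21.7, 13.7 and 4.41 CPM in Input. It was low in replicate 3 of each group, as the sarcomere genes were. Ppn was no longer called without IgG 1, IgG 2 or any 1 Input library, or with the replicate block. Without Input 1, 2 and 3, 2, 3 and 2 members of the class were called. The call for LanA was kept under all 17 alternative settings.

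**Figure D2:**
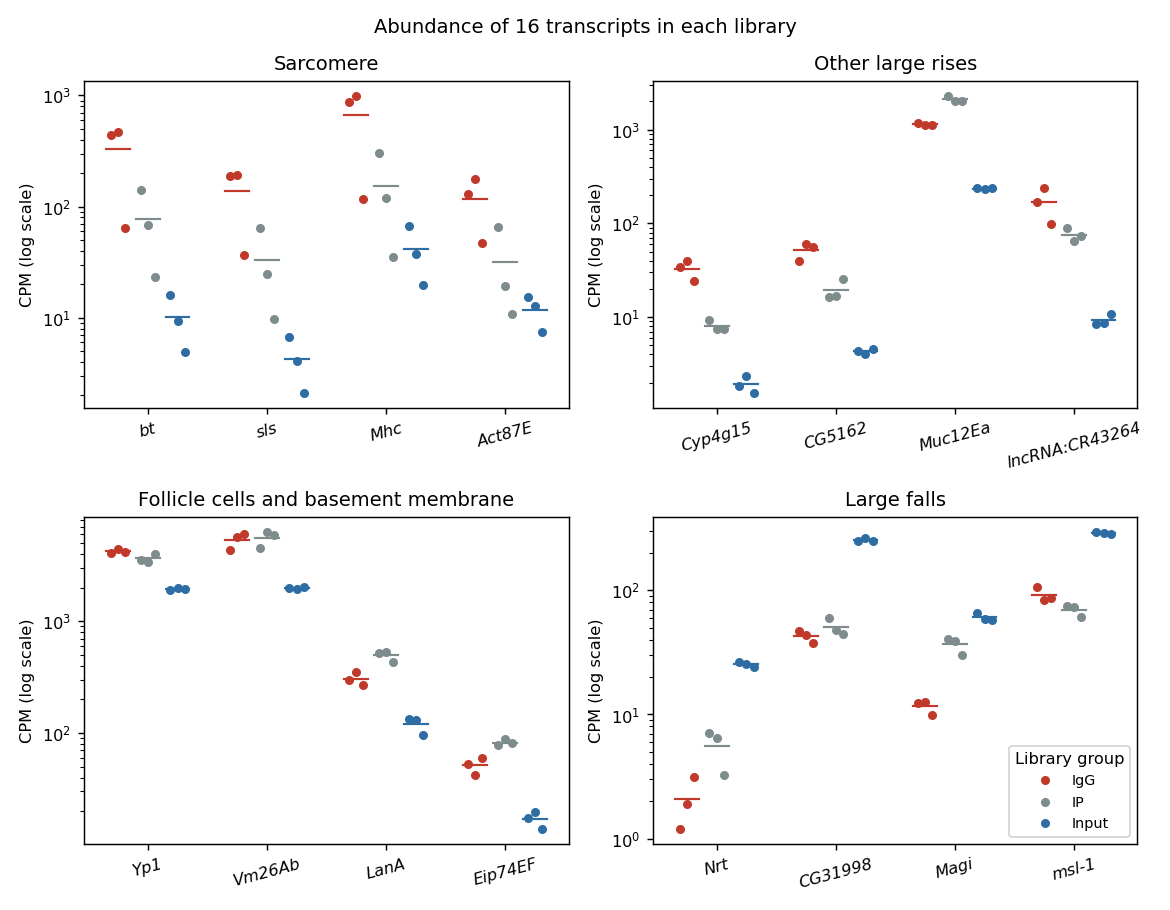
Each point is the CPM (log axis) of 1 library and each line a group mean, with IgG, IP and Input from left to right for each of 16 transcripts in 4 panels. Sarcomere genes spread widely within a group, bt from 64.8 to 472 CPM in IgG, whereas Yp1 stayed within 4079 to 4444 CPM in IgG and 1898 to 1981 CPM in Input.

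Products of the follicle cells rose as well. Of 23 tested genes for eggshell and yolk proteins, 8 rose and none fell, with a median of 0.51, and the class made up 50621, 58910.1 and 68953 CPM in IgG, 40498, 44617 and 48506 CPM in IP and 36155, 36458 and 43002 CPM in Input. The yolk protein gene Yp1 stood at 4079, 4444 and 4206 CPM in IgG, 3548, 3419 and 3972 CPM in IP and 1898, 1981 and 1952 CPM in Input (1.12, SE 0.05, adjusted p 0.000512), and Yp2 and Yp3 rose by 0.60 and 0.34 (adjusted p 0.00121 and 0.0144). Among genes of the vitelline membrane, the inner eggshell layer, Vm26Ab stood at 4326, 5667 and 6076 CPM in IgG, 4554, 6331 and 5887 CPM in IP and 1981, 1951 and 2010.4 CPM in Input (1.43, SE 0.13, adjusted p 0.00206). Vm26Aa (1.04), Vm34Ca (0.80) and palisade (psd, 0.53) rose too (adjusted p 0.00178, 0.0149 and 0.00816), whereas Vml did not pass (-0.01, adjusted p 0.969). The chorion genes, which make the outer layer, varied more between libraries, and of the numbered Cp genes Cp7Fb alone was called (0.63, adjusted p 0.0102). Cp38 stood at 5389, 6252 and 9133 CPM in IgG and 4438, 4035 and 6116 CPM in Input (0.51, adjusted p 0.172), with replicate 3 highest in IgG, IP and Input alike, and Cp15 differed by 0.0038 (adjusted p 0.993). Upon omission of Input 1, 2 and 3, 4, 5 and 6 members of the class were called. With the replicate block 15 of the 23 were called higher, Cp38 among them (adjusted p 8.72e-06 by edgeR).

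Regulators that act in follicle cells rose in 8 of 29 cases and fell in 1, with a median of 0.49 and CPM sums of 2472, 2460.1 and 2448 in IgG, 3306, 3457 and 3283 in IP and 1908, 1969.7 and 1827 in Input. The ecdysone-induced factor Eip74EF stood at 53, 42.6 and 59.9 CPM in IgG, 77.5, 88.5 and 80.7 CPM in IP and 17.2, 19.8 and 13.9 CPM in Input (1.61, SE 0.22, adjusted p 0.00617). The zinc-finger factor pebbled (peb, 1.08), the EGF receptor (Egfr, 1.08), Sox14 (1.03), eyes absent (eya, 0.91), traffic jam (tj, 0.52), tramtrack (ttk, 0.49) and the JAK-STAT receptor domeless (dome, 0.42) rose (adjusted p 0.00671, 0.0322, 0.0138, 0.031, 0.014, 0.0107 and 0.0132). The ecdysone receptor gene EcR fell (-0.65, adjusted p 0.0251). With Input 1, 2 and 3 left out in turn, 2, 3 and 2 members were called higher.

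Markers of the gut and of the testis and accessory gland were mostly at 0, and those of other tissues in part. In the gut list, 31 of 35 genes had no read in any IgG library and 20 none in any Input library, and 1, the maltase gene Mal-A5, was tested (0.04, adjusted p 0.863). The testis and accessory gland list had 68 of 73 genes at 0 in IgG and 49 in Input, whereas 5 of 14 were at 0 in IgG in the fat body list, 3 of 12 in the hemocyte list and 9 of 26 in the neuron and glia list. The digestive enzyme genes alphaTry, betaTry, Jon99Ci and Mal-A1 were at 0 in every IgG library, as were the larval fat body genes Lsp1alpha, Lsp1beta and Fbp1, the testis and accessory gland genes dj, Mst87F and Acp26Aa, the neuronal genes nSyb and brp, and the hemocyte gene He. The other hemocyte genes Hml, NimC1 and PPO2 were read in IgG 3 alone among the IgG libraries, at 2.60, 4.73 and 2.83 CPM, as was the larval fat body gene Lsp2 at 2.41 CPM, and the lipophorin gene apolpp had 18.8, 36.2 and 107 CPM in IgG libraries 1, 2 and 3 and 10.5, 18.8 and 23.9 CPM in Input (1.61, adjusted p 0.132). Hml, NimC1, PPO2, Lsp2 and apolpp were thus highest in IgG 3, the IgG library with the fewest reads of the sarcomere genes. The neuronal genes ran otherwise: elav stood at 11.8, 7.06 and 0.141 CPM in IgG and 3.63, 3.52 and 3.16 CPM in Input (0.87, adjusted p 0.684), and Syt1 was read in IgG 2 alone among the IgG libraries, at 2.91 CPM. The part of these markers in the results was not tested. The list sums were 699, 746 and 704 CPM in IgG and 774, 808 and 736 CPM in Input for fat body, and 311, 276 and 383 CPM in IgG and 369.7, 372 and 381 CPM in Input for hemocytes, ranges that overlapped. Among the members that ovaries do contain, the lipoprotein receptor gene LpR2 (-0.70) and the scavenger receptor gene croquemort (crq, -0.68) fell, and the sterol synthesis gene Hmgs rose (0.55; adjusted p 0.0113, 0.0149 and 0.0416). All 3 calls were lost without any 1 Input library, and that for Hmgs also without IgG 1 or IgG 2, with library totals and after GC correction. In the neuron and glia list 2 of 17 were higher and 3 lower, near the shares over all genes tested (10.3% and 16.6%). Of the 3, 2 had no read in any IgG library. From this list the glutamine synthetase gene Gs2 stood at 35.1, 49.6 and 39.5 CPM in IgG and 9.7, 11.2 and 11.3 CPM in Input (1.95, adjusted p 0.00288).

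Of 16 tested genes for trachea, cuticle and mucins, 4 rose, and the 5 called lower had no read in any IgG library. The mucin gene Muc12Ea had the smallest adjusted p of the 8789 genes, with 1168, 1132 and 1135 CPM in IgG, 2293, 2043 and 2009 CPM in IP and 237, 231 and 237 CPM in Input (2.28, SE 0.05, adjusted p 1.6e-05). The chitin-binding gene Gasp stood at 17.4, 20.4 and 16.8 CPM in IgG and 2.91, 3.22 and 2.56 CPM in Input (2.65, adjusted p 0.00373), and the chitin deacetylase genes vermiform (verm, 4.37) and serpentine (serp, 2.41) also rose (adjusted p 0.0149 and 0.041). The 5 called lower, kkv, obst-B, Muc68Ca, Cpr97Eb and obst-H, were under 1 CPM in Input. They passed the filter on low counts only through reads in Input or IP, so these calls cannot show whether the class dropped out. Other large rises fell outside the tissue lists. The cytochrome P450 gene Cyp4g15 stood at 34.3, 40.1 and 24.2 CPM in IgG, 9.26, 7.55 and 7.45 CPM in IP and 1.85, 2.38 and 1.55 CPM in Input (4.09, SE 0.33, adjusted p 0.00155). For CG5162 these were 39.7, 60.1 and 55.9 CPM in IgG, 16.2, 16.9 and 25.4 CPM in IP and 4.37, 4.06 and 4.58 CPM in Input (3.58, SE 0.24, adjusted p 0.00121). IgG and Input did not overlap for Muc12Ea, Gasp, Cyp4g15 or CG5162, and these 4 calls were kept under all 17 alternative settings. CG43897 (5.22) and CG7378 (3.49) rose with the replicate pattern of the muscle genes, with 154, 146 and 22.4 CPM and 84.7, 46 and 28.9 CPM in IgG (adjusted p 0.0102 and 0.0065).

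Germline mRNAs for the oocyte axes and maternal ribonucleoproteins were called in both directions. Of 30 tested, 7 rose (23.3%) and 9 fell (30%), beside 19.1% and 32.0% of all tested genes at 300 CPM and over in Input. The list's Input median was 304 CPM. The class held 17999.8, 17792 and 17861 CPM in IgG, 19197, 19901 and 20636 CPM in IP and 19376, 19748 and 19483 CPM in Input. The IgG sums thus lay below the Input sums. The anterior determinant bicoid (bcd), an mRNA localized to the front of the oocyte, stood at 227, 237 and 202 CPM in IgG, 365, 315 and 295 CPM in IP and 85.5, 85 and 82.7 CPM in Input (1.39, SE 0.09, adjusted p 0.00121). The posterior determinant oskar (osk) did not pass, with 1364, 1373 and 1147 CPM in IgG and 1585, 1528 and 1392 CPM in Input (-0.22, adjusted p 0.134). Hunchback (hb, 0.67), pumilio (pum, 0.59), polar granule component (pgc, 0.55) and trailer hitch (tral, 0.47) rose (adjusted p 0.00918, 0.00343, 0.00429 and 0.00958). Among those that fell, Bruno (bru1) stood at 596, 559 and 671 CPM in IgG and 1194, 1168 and 1126 CPM in Input (-0.94, SE 0.08, adjusted p 0.00187), and the helicase me31B (-0.63) and Smaug (smg, -0.60) were lower too (adjusted p 0.0024 and 0.0109). The differentiation factor bag of marbles (bam) fell by more (-1.38, adjusted p 0.0141). Without Input 1, 2 and 3, 3, 4 and 4 members were called higher and 3, 2 and 4 lower.

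Of 30 tested genes of the piRNA pathway, which silences transposons in the germline, 10 fell and none rose, with a median of -0.33 and CPM sums of 2656, 2697 and 2371 in IgG, 2572, 2673 and 2566 in IP and 3245, 3297 and 3231 in Input. Nxf3, an export factor for piRNA precursors, stood at 7.86, 2.35 and 5.39 CPM in IgG, 2.76, 2.93 and 3.18 CPM in IP and 59, 55.7 and 52.4 CPM in Input (-3.42, SE 0.44, adjusted p 0.00502). It shares 4496 of its 7512 exonic bases with ssp2 on the same strand, so its reads may be split between them. The Tudor-domain genes SoYb (-1.29) and BoYb (-0.74), the helicase genes spn-E (-0.83) and armi (-0.76) and the methyltransferase gene csul (-0.75) were among the others (adjusted p 0.012, 0.0149, 0.0361, 0.0201 and 0.00578). The Argonautes piwi (-0.16) and aub (-0.16) did not pass (adjusted p 0.112 and 0.506). Without any 1 Input library, 1 member was called lower.

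Meiotic genes gave 1 rise and 3 falls among 18 tested (5.56% and 16.7%), beside 10.3% and 16.6% over all genes tested. The share of falls was thus near that of all genes. Matrimony (mtrm), an inhibitor of Polo kinase in the oocyte, rose (0.47, adjusted p 0.00343), while the recombination gene okra (okr, -1.48) and the synaptonemal complex gene c(3)G (-1.09) fell (adjusted p 0.00901 and 0.0149), and cona had 0 reads in IgG. Without any 1 Input library mtrm kept its call and no member was called lower. In the cell cycle list 9 of 31 rose and 6 fell (29.0% and 19.4%), and 4 were called higher and 3 lower without any 1 Input library. Of all tested genes at 100 to 300 CPM in Input, 13.6% rose and 23.6% fell, and this list's Input median was 131 CPM. Cyclins went both ways: CycB3 stood at 620.5, 714 and 755 CPM in IgG and 387, 387 and 409 CPM in Input (0.82, adjusted p 0.0029), CycA at 902, 717 and 670.2 CPM in IgG and 1435, 1406 and 1450.2 CPM in Input (-0.91, adjusted p 0.0042), and CycD at 90.3, 94.5 and 92.8 CPM in IgG and 184, 189 and 182 CPM in Input (-1.0, adjusted p 0.00123). Aurora B kinase (aurB, 0.73), its partner borealin (borr, 1.0) and the egg activation kinase pan gu (png, 0.79) with its partner gnu (0.65) rose (adjusted p 0.0156, 0.00371, 0.0149 and 0.00714).

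**Figure D3:**
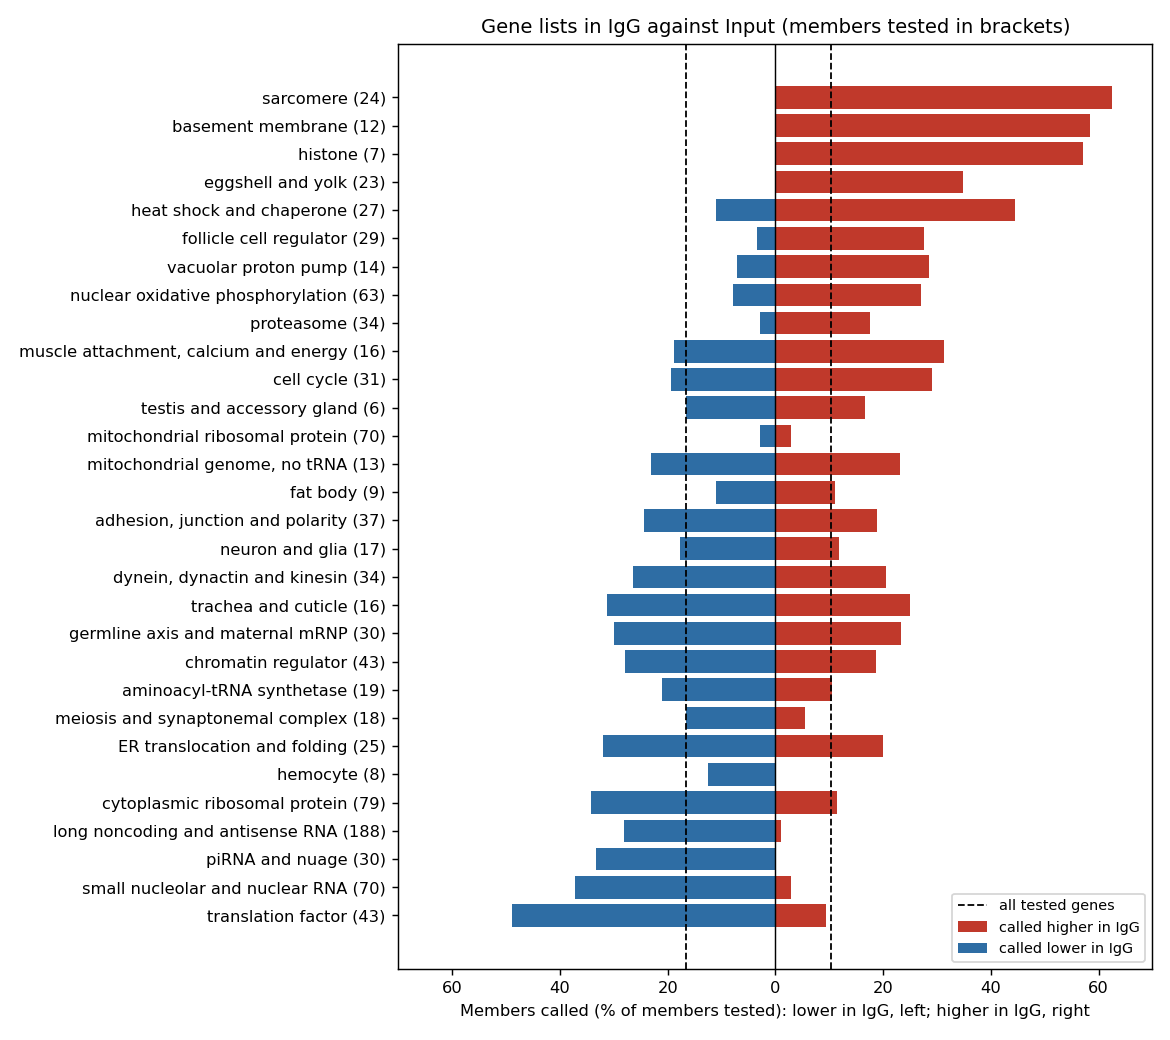
Bars give the percentage of tested members of each gene list called lower (left) and higher (right) in IgG than in Input, with the number tested in brackets and dashed lines at the share over all genes tested (16.6% lower, 10.3% higher). Sarcomere, basement membrane, histone and eggshell lists have bars on the right alone, piRNA and hemocyte lists on the left alone, and the gut list, with 1 gene tested, is left out.

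Chaperone mRNAs rose more often than they fell. Of 27 tested heat shock and chaperone genes 12 rose and 3 fell (median 0.34), with CPM sums of 20397, 19964 and 21030.4 in IgG, 21066, 20285 and 21895 in IP and 18731, 18059.9 and 17729.7 in Input. Of the subunits of the CCT chaperonin, which folds actin and tubulin, CCT1, CCT2, CCT3, CCT4, CCT6 and CCT7 rose by 0.34 to 0.58, whereas CCT5 fell, with 230.5, 196 and 216 CPM in IgG and 475, 443 and 431 CPM in Input (-1.07, SE 0.08, adjusted p 0.00139). The stress-inducible genes Hsp70Aa (2.09), Hsp68 (1.05) and DnaJ-1 (0.72) rose (adjusted p 0.0209, 0.0227 and 0.00678). Hsp70Aa has near-identical copies, of which Hsp70Ab (-1.86) and Hsp70Bc (1.75) did not pass (adjusted p 0.286 and 0.0693), so its own level is uncertain. The abundant Hsc70-4 and Hsp83 differed by 0.11 and 0.19 (adjusted p 0.21 and 0.0877), and mitochondrial Hsc70-5 fell (-0.87, adjusted p 0.00445). Upon omission of Input 1, 2 and 3, 2, 1 and 2 members were called higher. With any 1 library left out, 2 to 5 were called lower, and the median stayed between 0.26 and 0.35. Without 1 Input library, rises thus did not outnumber falls among the calls.

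Replacement histones, whose mRNAs are polyadenylated, rose together. His2Av stood at 1286, 1265 and 1376 CPM in IgG, 1161, 1139 and 1417 CPM in IP and 649, 653 and 717 CPM in Input (0.96, SE 0.06, adjusted p 0.00121) and His3.3B at 1263, 1337 and 1374 CPM in IgG and 769, 784 and 792 CPM in Input (0.76, SE 0.06, adjusted p 0.00121). His4r and His3.3A rose by 0.87 and 0.66 (adjusted p 0.0142 and 0.0136), and the oocyte linker histone BigH1 did not pass (0.21, adjusted p 0.134). With any 1 library left out, 2 to 5 histone genes were called higher and 0 to 1 lower. The calls for His2Av and His3.3B were kept under all 17 alternative settings. Of 116 histone genes in the files, 108 had no read in any IgG library and 105 none in any Input library, and 7 were tested.

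Nuclear genes of oxidative phosphorylation rose in 17 of 63 cases and fell in 5 (median 0.28). Those that rose included the small subunits COX6B (0.80), ND-B12 (1.30) and ATPsynF, which stood at 235, 224 and 236 CPM in IgG and 143, 143 and 151 CPM in Input (0.67; adjusted p 0.00465, 0.011 and 0.00249). The catalytic subunit ATPsynbeta fell, with 919, 875 and 924 CPM in IgG and 1487, 1530.3 and 1498 CPM in Input (-0.73, SE 0.05, adjusted p 0.00121). Without any 1 Input library, 3 members were called higher. Of 13 tested genes of the mitochondrial genome 3 rose and 3 fell. The complex I genes mt:ND5 and mt:ND4 fell by 2.52 and 1.98 on the log2 scale (adjusted p 0.00572 and 0.00652), while mt:CoII (0.82), mt:ND1 (1.70) and mt:ND6 (4.51) rose (adjusted p 0.00343, 0.022 and 0.0149). The proteasome had 6 of 34 genes called higher and 1 lower, led by the deubiquitinase Rpn11 (0.49, adjusted p 0.0034), and the vacuolar proton pump 4 of 14 higher and 1 lower, led by VhaPPA1-1 at 319, 356 and 384 CPM in IgG and 203, 195 and 182 CPM in Input (0.87, adjusted p 0.00317). Without any 1 Input library 1 proteasome gene was called higher, and after correction for exon length 2 were higher and 5 lower. Mitochondrial ribosomal proteins rarely changed, with 2 of 70 higher and 2 lower.

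Translation factors had the highest share of falls among the gene lists. Of 43 tested 21 fell (48.8%) and 4 rose (median -0.25), and their CPM summed to 19743, 18684 and 19549 in IgG, 16125, 16311 and 16330.3 in IP and 23949, 23959.7 and 23597 in Input. The elongation factor eEF2, which moves the ribosome along the mRNA, stood at 3150.4, 2899 and 3362 CPM in IgG, 2514, 2559 and 2683 CPM in IP and 6218, 6209 and 5828 CPM in Input (-0.96, SE 0.07, adjusted p 0.00133). The release factors eRF1, with 252, 219 and 249 CPM in IgG and 409, 419 and 428 CPM in Input (-0.81, adjusted p 0.00206), and eRF3 (-0.97, adjusted p 0.00214) fell, as did the initiation factor genes eIF2alpha (-0.81), eIF3i (-0.76) and eIF5B (-0.50; adjusted p 0.00976, 0.0102 and 0.0146). The 4 that rose were eEF1gamma, eEF1delta, eIF2beta and eIF3f1, by 0.17 to 0.37, and with scaling by library totals none of them was called. With Input 1, 2 and 3 left out in turn, 6, 5 and 7 members were called lower.

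Cytoplasmic ribosomal protein genes split. Of 79 tested, 27 fell and 9 rose (34.2% and 11.4%, median -0.19), and the class made up 76785, 70855 and 87655 CPM in IgG, 39793, 36280.3 and 35261 CPM in IP and 89119, 87518 and 90708 CPM in Input. Of all tested genes at 300 CPM and over in Input, 32.0% fell and 19.1% rose, and the median member of this list stood at 1004 CPM. Over the Input mean, the list medians were -0.29, -0.41 and 0.01 in IgG libraries 1, 2 and 3. The IgG 3 sum lay within the Input range. The stalk protein RpLP0 stood at 1736, 1566 and 1771 CPM in IgG, 736, 799 and 702 CPM in IP and 2555, 2633 and 2593 CPM in Input (-0.62, SE 0.06, adjusted p 0.00249), and its partner RpLP2 (-1.01), RpL22 (-1.23) and RpS3 (-0.99) fell further (adjusted p 0.00814, 0.00303 and 0.00985). RpL3, of the peptidyl transferase centre, rose, with 2695, 2689 and 2604 CPM in IgG, 2474, 2216 and 1909.9 CPM in IP and 1960.4, 1909 and 1810.0 CPM in Input (0.49, SE 0.05, adjusted p 0.0029), and RpL35A (0.58) and RpS19a (0.45) rose as well (adjusted p 0.00872 and 0.0156). Some of these genes have near-identical copies elsewhere in the genome, and how their reads were shared is not given in the sources used here. The IgG libraries stood above the IP libraries for nearly the whole class: 75 of 79 genes were called higher in IgG than in IP, with a median log2 fold change of 1.14, against 3.2% higher and 4.77% lower across all 8789 genes in that comparison. Both comparisons use the same IgG libraries. Without Input 1, 2 and 3, 13, 13 and 10 members were called lower against Input.

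Transfer RNA synthetases (2 of 19 higher, 4 lower) and the endoplasmic reticulum translocation and folding genes (5 of 25 higher, 8 lower) were mixed. These shares were 10.5% and 21.1%, and 20% and 32%, beside 13.6% and 23.6% of all tested genes at 100 to 300 CPM in Input. The Input medians of the lists were 159 and 175 CPM. TyrRS rose, with 277, 267 and 255 CPM in IgG and 161, 155 and 151 CPM in Input (0.77, adjusted p 0.0019), and AspRS fell (-2.60, adjusted p 0.018), a call lost without any 1 Input library. In the endoplasmic reticulum the small translocon subunit Sec61beta rose (1.03, adjusted p 0.00684), while the calnexin gene Cnx99A stood at 164, 149.97 and 128 CPM in IgG and 309, 309 and 311 CPM in Input (-1.07, SE 0.10, adjusted p 0.0021) and the disulfide isomerase gene ERp60 fell by 0.77 on the log2 scale (adjusted p 0.00153). Without any 1 Input library, 1 of these endoplasmic reticulum genes was called higher and 4 lower.

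Chromatin regulators, motors and adhesion genes went both ways. The shares that rose and fell were 18.6% and 27.9%, 20.6% and 26.5%, and 18.9% and 24.3%, in that order. Of all tested genes at 100 to 300 CPM in Input, 13.6% rose and 23.6% fell. The Input medians of the lists were 149, 115 and 109 CPM. Of 43 chromatin regulators 8 rose and 12 fell. The dosage compensation scaffold msl-1 stood at 107, 83.6 and 87.4 CPM in IgG, 75.4, 73.1 and 60.6 CPM in IP and 297, 291 and 286 CPM in Input (-1.66, SE 0.11, adjusted p 0.00121), and the histone methyltransferase gene Set2 and demethylase gene Utx fell (-1.21 and -1.58, adjusted p 0.00241 and 0.0109). The remodeller kismet (kis) rose, with 1099, 1182 and 1220.1 CPM in IgG, 2244, 2222 and 2041 CPM in IP and 669, 737 and 650.2 CPM in Input (0.77, SE 0.08, adjusted p 0.00249), a call that was lost after correction for exon length. Against IP, 17 of the 43 were lower in IgG and none was higher, beside 4.77% lower and 3.2% higher over all genes tested. Of 34 motor genes 7 rose and 9 fell. The dynein heavy chain gene Dhc64C stood at 463, 525 and 483 CPM in IgG and 255, 265 and 205.1 CPM in Input (1.02, SE 0.12, adjusted p 0.00356), whereas the light chain gene ctp (-0.96) and the intermediate chain gene short wing (sw, -2.83) of the same complex fell (adjusted p 0.00121 and 0.00701). Of 37 genes of adhesion, junctions and polarity 7 rose and 9 fell: the sodium pump Atpalpha (0.73) and the atypical cadherin kugelei (kug, 0.86) rose (adjusted p 0.0017 and 0.00356), and the polarity genes crb (-0.82) and par-6 (-0.83) fell (adjusted p 0.00418 and 0.00685). Without Input 1, 2 and 3, 4 chromatin regulators each time were called higher and 5, 5 and 4 lower, and 3 genes of adhesion, junctions and polarity were called in each direction.

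The largest falls of genes measured in IgG (mean over IgG and Input of 10 CPM or more) came from unrelated functions. Neurotactin (Nrt), a cell adhesion receptor, stood at 1.19, 1.9 and 3.12 CPM in IgG, 7.07, 6.52 and 3.27 CPM in IP and 26.7, 25.6 and 23.9 CPM in Input (-3.61, SE 0.43, adjusted p 0.00391). The Mediator subunit gene MED23 stood at 4.92, 5.26 and 6.4 CPM in IgG, 6.29, 10.6 and 12.4 CPM in IP and 32.8, 32 and 29.7 CPM in Input (-2.51, SE 0.23, adjusted p 0.00197), and Magi, a scaffold of cell junctions, at 12.3, 12.6 and 9.89 CPM in IgG, 40.9, 39.1 and 30.3 CPM in IP and 65.2, 58.5 and 57.8 CPM in Input (-2.39, SE 0.18, adjusted p 0.00121). IgG and Input did not overlap for these 3 genes, and their calls held under all 17 alternative settings. Magi was also lower in IgG than in IP (-1.69, adjusted p 0.00511). The growth regulators raptor (-2.79), of the TORC1 complex, and expanded (ex, -2.56), of the Hippo pathway, fell (adjusted p 0.0149 and 0.0108), with 6, 15.7 and 26.7 CPM and 6.43, 2.35 and 3.91 CPM in IgG. Of the exonic bases of raptor, 1669 are shared with Mipp2 on the same strand. The call for raptor was lost without any 1 Input library and with the replicate block, and that for ex without Input 1 or Input 2.

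Long mRNAs were lower in IgG more often than short ones. Among genes with at least 10 CPM in Input, those with a coding sequence of 780 bases or less were called higher in 21.1% of cases and lower in 5.33% (n = 1219, median log2 fold change 0.24). Those with 2751 bases or more were called higher in 12.3% and lower in 25.9% (n = 1215, median -0.19). By exon length over all tested genes, the shortest of 5 equal bins was called higher in 11.9% of cases and lower in 11.5% (n = 1715), and the longest higher in 12.7% and lower in 22.3% (n = 1714). In each IgG library on its own the median ratio by coding length to the Input mean was 0.20, 0.18 and 0.25 in the shortest of 5 equal bins and -0.18, -0.19 and -0.23 in the longest. Correction for exon length moved the median of the ribosomal protein genes to -0.40 and that of the nuclear oxidative phosphorylation genes to 0.07, and 752 of the 908 genes called higher and 1325 of the 1456 called lower kept their call.

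GC content went with the difference too, less strongly. The bin of genes with the lowest exonic GC (45.4% or less, of 5 equal bins) was called higher in 10.7% of cases and lower in 20.7% (median -0.12, n = 1223), and the bin with the highest GC (52.1% or more) higher in 15.8% and lower in 10.6% (median 0.06, n = 1223).

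**Figure D4:**
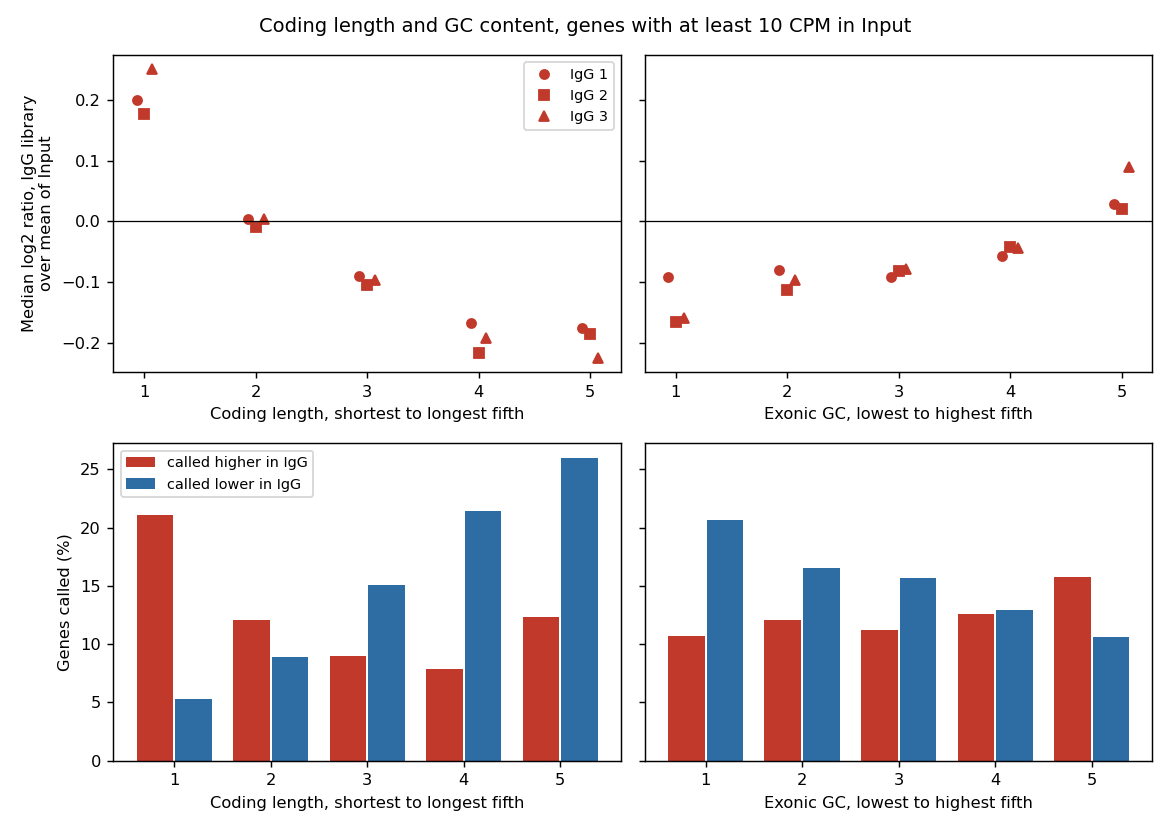
Genes with at least 10 CPM in Input were cut into 5 equal bins by coding length (left) and exonic GC content (right). The upper panels give the median log2 ratio of each IgG library over the mean of Input, and the lower panels the percentage of genes called higher (red) and lower (blue) in IgG. All 3 IgG libraries gave medians above 0 in the shortest bin and below 0 in the longest.

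The range of base composition is shown by 150 bases from exons of 4 transcripts with large differences, 3 of them that rose and 1 that fell, with G and C in capitals (5′ to 3′ along the mRNA, from the Release 6 genome, dm6). The first 3 are Vm26Ab, from coding sequence at chr2L:5957071-5957220 on the plus strand, the noncoding RNA lncRNA:CR43264 at chrX:5832014-5832163 on the minus strand, and bt, from coding sequence at chr4:758290-758439 on the plus strand. The last is CG31998, from coding sequence at chr4:200294-200443 on the minus strand.
Vm26Ab: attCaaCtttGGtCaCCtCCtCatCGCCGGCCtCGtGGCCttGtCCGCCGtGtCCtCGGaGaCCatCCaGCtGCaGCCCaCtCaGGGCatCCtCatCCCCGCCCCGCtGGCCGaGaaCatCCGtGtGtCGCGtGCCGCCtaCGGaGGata
lncRNA:CR43264: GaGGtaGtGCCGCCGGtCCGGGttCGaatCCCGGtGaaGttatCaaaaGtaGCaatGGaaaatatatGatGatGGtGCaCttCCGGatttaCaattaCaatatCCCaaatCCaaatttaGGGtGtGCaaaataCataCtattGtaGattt
bt: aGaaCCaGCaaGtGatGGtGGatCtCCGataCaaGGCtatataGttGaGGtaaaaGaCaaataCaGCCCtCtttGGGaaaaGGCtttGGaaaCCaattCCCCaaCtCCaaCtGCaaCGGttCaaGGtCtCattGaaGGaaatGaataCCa
CG31998: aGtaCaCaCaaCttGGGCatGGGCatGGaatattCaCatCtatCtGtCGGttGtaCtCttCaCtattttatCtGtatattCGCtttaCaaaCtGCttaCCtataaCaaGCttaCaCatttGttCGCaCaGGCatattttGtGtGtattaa
G and C make up 64.7%, 40%, 43.3% and 36.7% of these windows and 62.9%, 39.9%, 43.3% and 36.7% of the exons of the 4 genes. Each window was picked for a GC content closest to that of its gene's exons, so this match was set by the choice. The GC-poor lncRNA:CR43264 rose nonetheless, with 169, 238 and 99.5 CPM in IgG, 88.4, 65 and 73.8 CPM in IP and 8.48, 8.77 and 10.8 CPM in Input (4.17, SE 0.35, adjusted p 0.0017). CG31998 stood at 47.3, 43.3 and 37.9 CPM in IgG, 60.4, 47.8 and 44.3 CPM in IP and 249, 264 and 248 CPM in Input (-2.57, SE 0.11, adjusted p 0.000377).

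CG31998 lies on chromosome 4, a small and largely heterochromatic chromosome with AT-rich genes, whose mRNAs dropped out of the control pulldown more often than those of any other arm. Of 76 tested genes of chromosome 4, 33 were lower in IgG (43.4%) and 5 higher (6.58%), with a median log2 fold change of -0.52. Of the 33, 9 had no read in any IgG library. On the X and on each arm of chromosomes 2 and 3 the share called lower was 15.2% to 17.4% and the median between -0.04 and 0.04. Each IgG library showed the difference, with chromosome 4 medians of -0.36, -0.56 and -0.52 over the Input mean. The transcription factor gene Mitf, which controls lysosome genes, had 86.5, 90.2 and 81.6 CPM in IgG, 84.8, 71.5 and 46.4 CPM in IP and 336, 347 and 359.8 CPM in Input (-2.02, SE 0.07, adjusted p 0.00019). The Mediator gene MED26 (-0.91), the TFIID subunit gene Taf3 (-1.38), the Polycomb group gene pho (-1.26), the ephrin receptor gene Eph (-0.82) and the ribosomal protein gene RpS3A (-0.53) fell too (adjusted p 0.00121, 0.00317, 0.0291, 0.00424 and 0.0156). The 5 that rose were bt, CG1674 (3.40), CG31999 (2.07), CG33521 (2.08) and Tdg (0.99; adjusted p 0.015, 0.0216, 0.0191 and 0.00276).

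Genes of chromosome 4 had a median exonic GC content of 36.4%, against 48.9% on the other arms. Genes of the other arms within the same range of GC (33.5% to 43.4%) were lower in 21.8% of cases (n = 1071, median -0.08). At an Input level of at least 10 CPM, 46.9% of 49 genes of chromosome 4 were lower (median -0.50), against 28.7% of the genes of other arms that lay within the range of chromosome 4 in GC and exon length (n = 453, median -0.26). The chromosome 4 genes were still longer and more AT-rich, with medians of 5073 exonic bases and 36.3% GC, against 2946 bases and 41.7% on the other arms. After correction for GC content 25 of the 76 were lower and 7 higher, with a median of -0.26. Upon omission of Input 1, 2 and 3, 10 genes were lower each time and the median was -0.51, -0.49 and -0.51. Against IP, chromosome 4 genes in IgG had a median of 0.19. Of the 76, 4 were called higher and 4 lower, near the shares over all genes tested (3.2% higher and 4.77% lower).

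**Figure D5:**
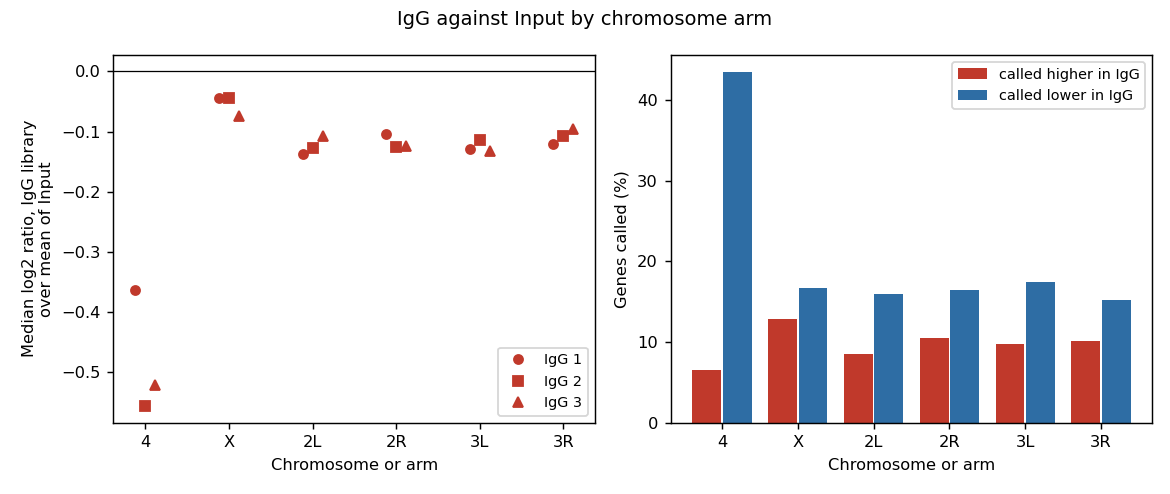
The left panel gives the median log2 ratio of each IgG library over the mean of Input for tested genes of chromosome 4, the X and the arms of chromosomes 2 and 3, and the right panel the percentage called higher (red) and lower (blue) in IgG. Chromosome 4 lies between -0.56 and -0.36, the others between -0.14 and -0.04.

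Noncoding RNAs present after poly(A) selection were often absent from IgG. Of 64 tested small nucleolar RNAs 26 were lower in IgG (40.6%) and 1 was higher, and of 200 other tested noncoding RNAs 54 were lower (27%) and 5 higher, against 16.1% lower and 10.6% higher among 8262 protein-coding genes. Of all tested genes at 0.1 to 1 CPM in Input, 34.2% were lower in IgG. Most of these RNAs were scarce in Input, with medians of 0.389 CPM for small nucleolar and 0.905 CPM for the other noncoding RNAs, and 26 of the 26 and 51 of the 54 lower ones had no read in any IgG library. As an example, snoRNA:Me28S-G2173, a guide for ribosomal RNA methylation, had 0, 0 and 0 CPM in IgG and 0.462, 0.406 and 0.381 CPM in Input. RNAs without reads in IgG were tested only because Input or IP had reads. The shares called lower therefore cannot show whether noncoding RNAs as a class dropped out. The noncoding RNAs that were measured in IgG could rise, as did snoRNA:Psi18S-531, with 26.8, 14.7 and 17.6 CPM in IgG and 7.51, 9.12 and 8.35 CPM in Input (1.24, adjusted p 0.0289), and the minor spliceosome RNA snRNA:U11, with 17.8, 7.02 and 2.2 CPM in IgG and 0.647, 0.507 and 0.742 CPM in Input (3.82, adjusted p 0.0284). Both calls were lost without any 1 Input library and with the replicate block, and that for snoRNA:Psi18S-531 also with library totals. With any 1 Input library left out, no RNA of the nucleolar and nuclear list was called lower.

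Set against the other pulldown, IgG was higher than IP for 281 genes (3.2% of those tested) and lower for 419 (4.77%). Several genes that rose over Input in IgG stood higher still in IP: Muc12Ea (-0.91 for IgG over IP), Atpalpha (-1.36), Col4a1 (-1.09), kug (-1.0), Dhc64C (-0.90) and bcd (-0.58) were lower in IgG than in IP (adjusted p 0.000396, 0.000343, 0.000654, 0.000486, 0.00259 and 0.0172). Cyp4g15 (2.0), CG5162 (1.39), Gasp (1.83) and mt:CoII (2.1) were higher in IgG than in IP (adjusted p 0.00493, 0.016, 0.0173 and 0.00129). For sarcomere genes the median of IgG over IP was 1.92 and 1 of 24 was called. For bt the difference of 2.03 did not pass (adjusted p 0.204), and the IgG values of 444, 472 and 64.8 CPM and the IP values of 142, 68.9 and 23.3 CPM overlapped. CG31998 (-0.27), eEF2 (0.25) and Yp1 (0.19) did not pass between IgG and IP (adjusted p 0.442, 0.0687 and 0.126).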

How the data were processed

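The authors deposited whole-number counts of reads per FlyBase gene for each library. The submitters' processing notes name HISAT2 2.1.0, featureCounts 1.4.6 and the dm6 genome, and how reads of overlapping or near-identical genes were shared is not given in the sources used here. Of 17024 features, 8789 passed a filter on low counts (filterByExpr of edgeR, minimum count 10 in at least 3 of the 9 libraries). IgG was compared with Input, and with IP, by edgeR 4.0.16's quasi-likelihood F test with TMM scaling (R 4.3.3) on the libraries of both groups, a gene being called at a Benjamini-Hochberg adjusted p under 0.05. Printed CPM use TMM factors of all 9 libraries. Genes at 0 in a group were given as bounds against 3 counts. Symbols, lengths, GC content and chromosomes came from a Release 6 annotation, and 377 IDs had no symbol there. The gene lists and members were chosen with earlier results of these data known. Named genes were the 12 largest rises and 12 largest falls among called genes that averaged 10 CPM or more and whose groups did not overlap, and in each list the 2 called members with the smallest p and the 2 most abundant members. Further list members and markers, chromosome 4 genes and noncoding RNAs were named after their values were seen. DESeq2 1.42.0, other scalings and filters, corrections for length and GC, a replicate block and the omission of each library were the alternatives. The GC correction was chosen after seeing the data.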

Additional observations from a re-analysis of the deposited data

How the results depend on the processing

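Against Input, counts of calls moved beyond 1.5-fold with scaling by library totals (605 higher), a mean of at least 50 counts (941 lower), an adjusted p under 0.01 (514 called, 234 higher and 280 lower), a 2-fold minimum (1038, 286 and 752) and omission of 1 library (446 to 3306 called, 192 to 1306 higher, 251 to 2035 lower). Higher calls were 38.4% of all calls, against 49.8% with DESeq2, 49.5% at 50 counts and 25.8% with library totals. Deviations of same-numbered IgG and Input libraries correlated at 0.0935, 0.0904 and 0.187, and those of unlike numbers at -0.123 to 0.0332. Each IgG library thus correlated best with the Input library of its own number. The main fit did not take the numbers as pairs, since not all same-number values were above 0.1, a limit that does not exclude pairing. Any pairing is therefore left out of its p-values. With the replicate block 1959 genes were called, of which 1574 were shared, and 5 of the 471 genes at 0 in IgG. With the block 15 of 23 eggshell and yolk genes were called higher, Cp38 among them (adjusted p 8.72e-06 by edgeR), and Mhc, Ca-alpha1D, Ppn and raptor were not called (adjusted p 0.0857, 0.0827, 0.0589 and 0.0520), nor were snoRNA:Psi18S-531 and snRNA:U11. Corrected for exon length, without and with the block, the ribosomal protein median was -0.40 and -0.42 and that of oxidative phosphorylation 0.074 and 0.072. The median of all genes was -0.14 with library totals and -0.17 with the block, against -0.01. Library totals gave medians of -0.37 for translation factors, 0.22 for chaperones, 0.36 for follicle cell regulators and -0.64 for chromosome 4. GC correction gave 0.23 for chaperones and -0.26 for chromosome 4, which was -0.31 at 50 counts and -0.62 with length correction and block. Follicle cell regulators were at 0.44 with the block and 0.37 with both. With 1 library left out the eggshell median was 0.26 to 0.58 and that of follicle cell regulators 0.42 to 0.54. IgG against IP gave 1264 calls with the block (474 higher, 790 lower), 1193 with library totals (165 higher, 1028 lower) and 295 to 930 with 1 library left out (137 to 404 higher, 158 to 539 lower). Median ratios by abundance were -0.29 and -0.30 under 0.1 CPM and -0.70 and -0.69 at 0.1 to 1 CPM with Input 2 and 3 for the bands. None of the named genes called in the comparison changed sign. Of those not called, direction turned past the threshold for dom (-0.22 after length correction, 0.04 otherwise), Syt1 (-6.26 to 2.65 with 1 library left out) and Hml (-6.10 to 2.55), and the sign also changed for others, such as NimC1 (-5.40 to 4.33), PPO2 (-5.66 to 3.11), Lsp2 (-6.05 to 2.49), elav (-0.27 to 1.45) and Hsc70-4 (-0.02 to 0.18). Of 100 named genes called, 56 to 58 kept their call without 1 Input library, 94 to 99 without 1 IgG library and 86 to 99 under the other settings, and the cause of each change was not tested.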
